A study of Homo sapiens with 6 samples.

Results

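The serpins described are 27 genes of the expression table whose symbol reads SERPIN, a clade letter from A to I and a number, among 23569 genes listed. They comprised 12 genes of the secreted clades A, C, D, F and G, 11 genes of clade B, whose proteins mostly stay inside the cell, and 4 genes of clades E, H and I. Beside them the annotation has 6 further protein-coding symbols of this form (SERPINA9, SERPINA11, SERPINA12, SERPINB10, SERPINB13 and SERPINI2), which were not among the listed genes and are not analysed here. AGT, a clade A relative without the symbol, is given once below.

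RNA-seq was performed on TFK1, an established cell line from a bile duct carcinoma, in 3 libraries of cells carrying the negative control (oeNC) and 3 libraries of cells overexpressing STUB1 (oeSTUB1). Both arms were made with lentivirus and selected with puromycin into stable populations, 1 population for each arm as far as the methods tell, so that the vector and its selection are shared. Any other difference between these populations cannot be told apart from the overexpression of STUB1. The comparison was designed to look for tumor suppressor genes controlled through STUB1, an E3 ubiquitin ligase, with UHRF1 and DNMT1, which maintain DNA methylation. The sources used here do not say whether the 3 libraries of a group came from separate cultures, and p-values then measure only the spread between these libraries, which may be technical.

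Serpins fold into a strained shape with an exposed loop that acts as bait. A target protease that cuts the loop is usually trapped in a covalent complex, and the complex is cleared through receptors of the LDL receptor family. The liver secretes many of them into plasma, where they hold coagulation, fibrinolysis, complement and neutrophil proteases in check, whereas clade B members mostly protect cells from proteases of granules and lysosomes. A few members inhibit nothing, such as the hormone carrier SERPINA6 and the collagen chaperone SERPINH1.

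The library totals lay between 33106564 and 36744521 fragments, and STUB1 itself averaged 32.3 ± 1.23 FPKM in the controls against 66.1 ± 7.70 FPKM in oeSTUB1 (SD, 3 libraries in each group; log2 fold change 1.03, SE 0.10, adjusted p = 0.000642, limma), with no overlap between the groups. JMJD8 lies over part of STUB1 on the other strand, and the sources used here do not state whether counting used strand. Replicate 2 of oeSTUB1 stood apart from the other libraries. Its chi-square per degree of freedom against the other oeSTUB1 libraries was 76.7 and 82.6, where other pairs within a group gave 3.48 to 10.4. Serpin results that turn on it are given without it as well. Of the 10 bile duct markers, KRT7 was at 482 to 654 FPKM in 5 libraries and 872 FPKM in the sixth, whereas KRT19 was at only 0.374 to 0.529 FPKM in oeNC and 2.51 to 3.41 FPKM in oeSTUB1.

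Promoter sequence is shown first because the study turns on DNA methylation, which in human cells falls mostly on CG pairs. RefSeq promoter windows on GRCh38.p14, the 250 bases before a transcript start, were found for 22 of the 27 serpins, in 33 windows. SERPINB11, SERPINF1, SERPINF2, SERPINC1 and SERPING1 had none, so that the windows leave out every serpin called lower in the test below. The 4 stretches printed here end before the first base that GENCODE 29 places in an exon. SERPINA6 is shown as the secreted member with the highest level in oeNC, SERPINA3 as the secreted member that rose, SERPINB7 as a clade B member with 2 TGANTCA matches, and SERPINE2 as a clade E member that rose. Capitals mark CG in SERPINA6, SERPINA3 and SERPINE2 and TGANTCA in SERPINB7. The stretches lie at chr14:94323395-94323586 on the minus strand, chr14:94612141-94612296 on the plus strand, chr18:63777531-63777776 on the plus strand, inside the annotated gene, and chr2:224031479-224031728 on the minus strand, also inside the gene.
SERPINA6: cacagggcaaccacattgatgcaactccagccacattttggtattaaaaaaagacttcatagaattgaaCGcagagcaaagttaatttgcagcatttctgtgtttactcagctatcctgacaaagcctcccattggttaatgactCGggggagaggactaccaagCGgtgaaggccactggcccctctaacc
SERPINA3: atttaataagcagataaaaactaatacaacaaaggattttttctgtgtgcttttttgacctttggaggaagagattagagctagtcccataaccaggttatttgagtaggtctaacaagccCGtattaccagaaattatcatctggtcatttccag
SERPINB7: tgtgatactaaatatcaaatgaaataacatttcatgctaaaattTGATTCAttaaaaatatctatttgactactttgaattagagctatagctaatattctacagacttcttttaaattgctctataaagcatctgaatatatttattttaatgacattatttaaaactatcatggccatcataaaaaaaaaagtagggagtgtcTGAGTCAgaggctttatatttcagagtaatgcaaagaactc
SERPINE2: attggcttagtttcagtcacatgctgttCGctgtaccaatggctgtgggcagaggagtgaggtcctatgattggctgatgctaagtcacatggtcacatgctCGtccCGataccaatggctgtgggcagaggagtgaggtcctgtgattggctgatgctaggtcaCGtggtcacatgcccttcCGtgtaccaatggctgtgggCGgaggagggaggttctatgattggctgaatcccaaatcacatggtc

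SERPINE2 has a second window, at chr2:224038641-224038890, which holds 28 CG against 6 in the one printed and is not printed because 164 of its bases are exonic. By the median, serpin promoter windows were poor in CG, with 5 in the 33 windows against 11 in all 35116 windows of that length. The serpin counts ran from 0 to 34. Windows of some abundant members held more CG, 21 in SERPINB1, 27 in SERPINB9 and 20 and 26 in SERPINH1. The SERPINB6 windows held 26, 34, 34 and 3. Windows of 1 gene can overlap and were counted separately. The median was 4 in the 10 windows of the secreted clades, which come from clades A and D only. It was 3 in the 16 windows of clade B and 9 in the 7 windows of clades E, H and I. TGANTCA, which takes in the motif of AP-1 factors and reads the same on both strands apart from the middle base, was found in 6 of the 16 clade B windows (37.5%), in 0 of the 10 secreted windows and in 6.57% of all windows. The clade B matches came from 5 genes, SERPINB2, SERPINB5, SERPINB7, SERPINB8 and SERPINB12, so that not all windows are separate genes. Exonic bases were counted too, all 250 of the SERPINB8 window and 197 of the SERPINB5 window. TATAAA, searched on both strands, was found in 18.2% of the serpin windows and 10.7% of all windows. These matches are descriptions of letters, and methylation was not measured in these libraries.

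In levels per transcript length (FPKM, fragments per kilobase of gene, scaled to the library total), the serpins described were led by members of clades B, H and E, and the secreted plasma serpins of the liver were low or at the floor. Among them the order in oeNC was SERPINB1 at a mean of 35.9, SERPINH1 at 32.2, SERPINB6 at 12.3, SERPINB9 at 9.82 and SERPINE2 at 6.89 FPKM, and none of these neighbours in the order overlapped over the libraries. In oeSTUB1 the order was SERPINH1 at 38.8, SERPINB1 at 31.6, SERPINB6 at 14.7, SERPINE2 at 14.7 and SERPINB9 at 7.72 FPKM, and there only SERPINB6 and SERPINE2 overlapped. The highest secreted member in oeNC was SERPINA6, at 3.45 FPKM. Of the 12 secreted genes, 4 had a mean of 1 FPKM or more over the 6 libraries, against 5 of 11 clade B genes and 3 of the 4 genes of clades E, H and I.

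**Figure D1:**
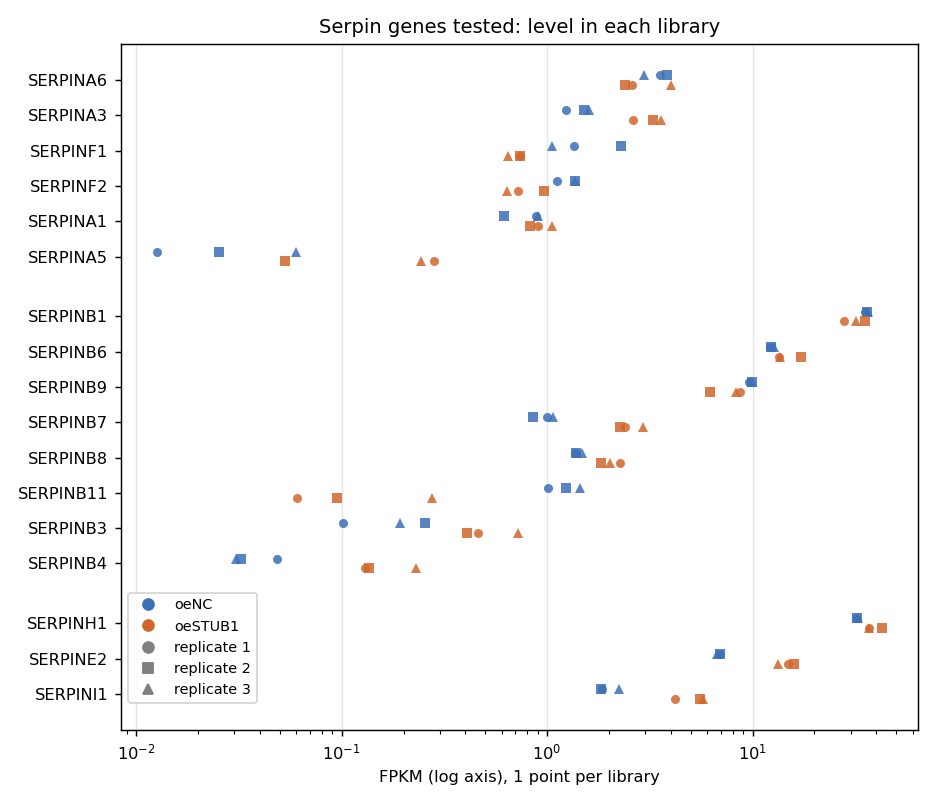
FPKM of the 17 serpins tested, on a log axis, with 1 point per library, oeNC in blue and oeSTUB1 in orange, secreted clades at the top, clade B in the middle and clades E, H and I at the bottom. SERPINB1 and SERPINH1 lie furthest right in both groups, and SERPINB11 is the member whose oeSTUB1 points lie furthest left of its oeNC points.

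The 27 serpins together summed to 109, 113 and 113 FPKM in oeNC and 119, 136 and 126 FPKM in oeSTUB1, and every oeSTUB1 library was above every control. Clades E, H and I summed to 40.6, 41.1 and 41.4 FPKM in oeNC and 56.04, 64.1 and 55.8 FPKM in oeSTUB1, also without overlap. Clade B summed to 60.5, 62.2 and 63.1 FPKM in oeNC and 55.3, 63.4 and 59.8 FPKM in oeSTUB1, and these ranges overlap. The secreted clades summed to 8.34, 9.94 and 8.08 FPKM in oeNC and 7.99, 8.52 and 10.2 FPKM in oeSTUB1, which overlap as well. These are bulk libraries, in which fewer cells of a type and less RNA in each cell cannot be told apart.

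**Figure D2:**
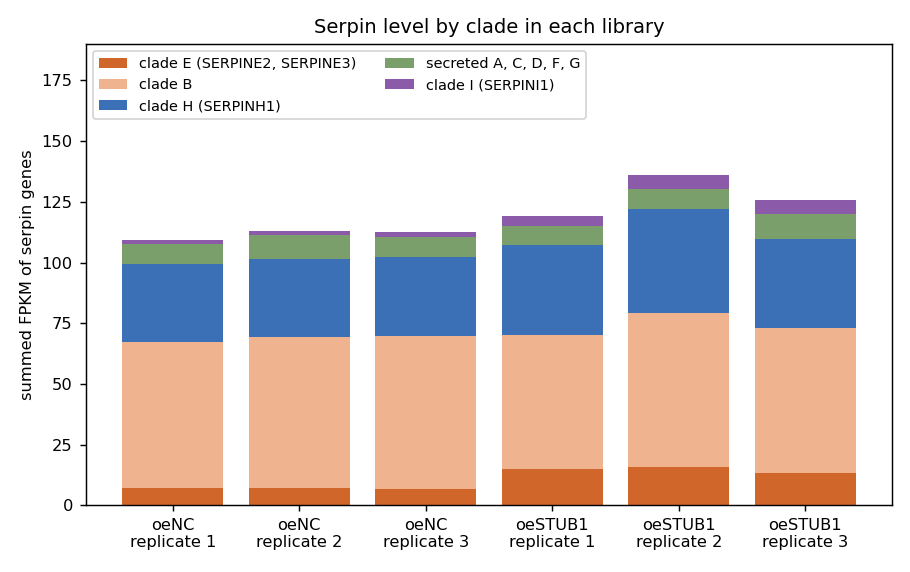
Summed FPKM of the serpin genes in each library, stacked by clade. The oeSTUB1 bars reach 119 to 136 FPKM against 109 to 113 FPKM in oeNC, and the blocks of clades E, H and I are the parts that are higher in every oeSTUB1 library.

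Overexpression of STUB1 was accompanied by a rise of SERPINE2, SERPINI1, SERPINA3, SERPINB3, SERPINB7 and SERPINB8 and by a fall of SERPINB11, SERPINF1 and SERPINF2. Differences were tested with limma on log2(FPKM + 0.1) for genes averaging 0.1 FPKM or more, and a gene was called at a Benjamini-Hochberg adjusted p under 0.05. Of the 17 serpins tested, 6 rose, 3 fell and 8 were not called, beside 13.6% of all 15353 genes tested that were called, 7.01% higher and 6.59% lower. SERPINA5 and SERPINB4 passed the level filter only through their oeSTUB1 libraries, so that their direction was set by the filter, and both are left out of the medians and counts of overlap given here. Over the other 15 the median log2 fold change was 0.24, and the median of its absolute value was 0.67. The same medians were 0.02 and 0.20 over the 14696 genes left when genes that passed through 1 group only are dropped. The groups did not overlap for 12 of the 15 serpins, 8 with oeSTUB1 above and 4 with oeSTUB1 below. Of all genes tested, 38.8% did not overlap, 21.5% above and 17.3% below, and over the 14696 genes the shares were 21.2% above and 16.9% below. Of the serpins called, 5 rose and 1 fell by more than 1 on the log2 scale, and such changes made up 5.2% of all genes tested, 2.79% higher and 2.4% lower. Without oeSTUB1 replicate 2 the calls were 8 higher and 5 lower, beside 2274 higher and 1838 lower of all 15353 genes. The 8 include SERPINA5, whose direction was set by the filter. Without oeNC replicate 3 the serpin calls were 4 higher and 2 lower, beside 564 higher and 477 lower of all genes. Without any other single library they were 4 higher and 1 lower, beside 477 to 794 higher and 456 to 821 lower of all genes. Members of the clades differ in how many passed the level filter, and the difference between clades was not tested.

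**Figure D3:**
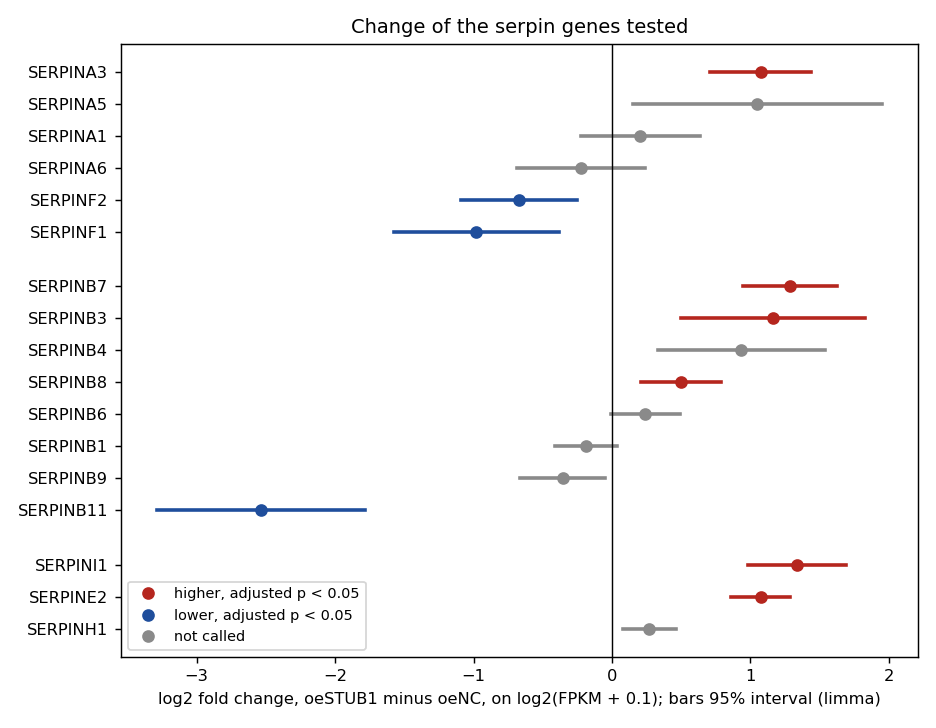
Log2 fold change of the 17 serpins tested, oeSTUB1 minus oeNC, as points with 95% intervals from limma, in red where called higher, in blue where called lower and in grey where not called. Each clade block holds red points, and SERPINB11 at -2.54 is the lowest of the 17.

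Of the secreted clades, 6 of the 12 listed genes could be tested. Of these 1 rose, 2 fell and 3 were not called, beside 7.01% of all genes called higher and 6.59% lower. The median log2 fold change was -0.22 over the 5 without SERPINA5, whose oeNC mean was under the filter. SERPINA3, alpha-1-antichymotrypsin, is an acute phase inhibitor of neutrophil and mast cell proteases. It stood at 1.23, 1.51 and 1.59 FPKM in oeNC and at 2.62, 3.28 and 3.57 FPKM in oeSTUB1. Every oeSTUB1 library was above every oeNC library, and the gene rose by 1.07 on the log2 scale (SE 0.16, adjusted p = 0.00406, limma), a call kept in all 16 alternatives.

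SERPINF1, pigment epithelium-derived factor, is an anti-angiogenic protein that does not inhibit proteases. It was at 1.35, 2.30 and 1.05 FPKM in oeNC and at 0.741, 0.736 and 0.643 FPKM in oeSTUB1. The groups did not overlap, oeNC replicate 2 was the highest, and the gene fell by 0.98 on the log2 scale (SE 0.26, adjusted p = 0.0440, limma). Its neighbour SERPINF2, alpha-2-antiplasmin, is the main plasma inhibitor of plasmin. It was at 1.12, 1.37 and 1.37 FPKM in oeNC and at 0.724, 0.969 and 0.637 FPKM in oeSTUB1, again without overlap. SERPINF2 fell by 0.67 on the log2 scale (SE 0.18, adjusted p = 0.0466, limma). Both calls lie near the threshold. SERPINF1 was lost without oeNC replicate 1, oeNC replicate 2, oeSTUB1 replicate 1 or oeSTUB1 replicate 3 (adjusted p 0.106, 0.0967, 0.0899 and 0.106), and SERPINF2 without any library but oeSTUB1 replicate 2 (adjusted p 0.0895 to 0.170).

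SERPINA1, alpha-1-antitrypsin, is the main plasma inhibitor of neutrophil elastase. It was at 0.884, 0.616 and 0.902 FPKM in oeNC and at 0.906, 0.828 and 1.06 FPKM in oeSTUB1. The groups overlapped, and the log2 fold change of 0.20 had a 95% interval of -0.22 to 0.63. SERPINA6, corticosteroid-binding globulin, was at 3.55, 3.85 and 2.95 FPKM in oeNC and at 2.59, 2.39 and 4.003 FPKM in oeSTUB1. Its groups overlapped too, since oeSTUB1 replicate 3 was the highest of all, and the interval of its log2 fold change ran from -0.69 to 0.24. SERPINA5, the protein C inhibitor, rested on 1, 2 and 5 fragments in oeNC and 22, 4 and 19 fragments in oeSTUB1, so that oeSTUB1 replicate 2 fell among the controls. Its log2 fold change was 1.05 (SE 0.39, adjusted p = 0.118, limma). Without oeSTUB1 replicate 2 it was 1.46 with an adjusted p of 0.0136, in a direction set by the level filter.

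The other 6 secreted genes had a mean under 0.1 FPKM and were not tested. SERPINC1, antithrombin, had 2, 3 and 0 fragments in oeNC and 0, 7 and 0 in oeSTUB1. SERPING1, the C1 inhibitor, had 2, 9 and 2 fragments in oeNC and 3, 9 and 4 in oeSTUB1. SERPINA10, the inhibitor of factor Xa that works with protein Z, had 18, 6 and 20 fragments in oeNC and 7, 1 and 1 in oeSTUB1, and these groups overlapped by 1 library each. SERPIND1, heparin cofactor II, SERPINA4, kallistatin, and SERPINA7, the thyroxine-binding globulin, had at most 3 fragments in any library. At these totals a difference in those 3 genes was not detectable. AGT, angiotensinogen, averaged 0.484 ± 0.0526 FPKM in the controls against 0.235 ± 0.0909 FPKM in oeSTUB1 (SD, 3 libraries in each group), and was not called (log2 fold change -0.84, SE 0.25, adjusted p = 0.0653, limma).

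Markers of hepatocytes were measured beside the secreted serpins. Of the 15 on the list 7 were tested, and FGB, FGG, AHSG and CPS1 fell while none rose. Of all genes tested, 6.59% were called lower and 7.01% higher. The list summed to 370 to 377 FPKM in oeNC and 212 to 275 FPKM in oeSTUB1. ALB, APOA1, APOA2, APOB, TF, HP, TTR and CYP3A4 were all under the filter, with ALB between 0.0252 and 0.0512 FPKM in every library. The part of these markers in the change of the secreted serpins was not tested.

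In clade B, 8 of the 11 listed genes were tested. Of these 3 rose, 1 fell and 4 were not called, beside 7.01% of all genes called higher and 6.59% lower. The median log2 fold change was 0.24 over the 7 without SERPINB4, which passed the filter only through oeSTUB1. The most abundant members were not among the genes called. SERPINB1, the neutrophil elastase inhibitor of leukocytes and epithelia, was at 35.2, 36.2 and 36.2 FPKM in oeNC and at 27.8, 35.3 and 31.7 FPKM in oeSTUB1. Only oeSTUB1 replicate 2 came within the range of the controls, and the log2 fold change was -0.19 (95% interval -0.41 to 0.03, adjusted p = 0.235, limma). SERPINB6, an inhibitor of cathepsin G, was at 12.1, 12.3 and 12.7 FPKM in oeNC and at 13.4, 17.1 and 13.6 FPKM in oeSTUB1. Its groups did not overlap, although the log2 fold change of 0.24 was not called (SE 0.11, adjusted p = 0.183, limma).

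SERPINB9, the inhibitor that protects cells from granzyme B, was at 9.55, 9.92 and 9.98 FPKM in oeNC and at 8.71, 6.18 and 8.28 FPKM in oeSTUB1. All oeSTUB1 libraries were below the controls, and the lowest was replicate 2. The log2 fold change was -0.36 (SE 0.13, adjusted p = 0.118, limma). Without oeSTUB1 replicate 2, SERPINB1 passed at -0.27 (adjusted p = 0.0177) and SERPINB9 at -0.21 (adjusted p = 0.0376). Blood cells include types rich in SERPINB1 and SERPINB9. Of their markers, 7 summed to 28.96 to 29.6 FPKM in oeNC and 21.3 to 22.1 FPKM in oeSTUB1, nearly all of it CD68. Of 5 markers tested CD68 was the 1 that fell, beside 6.59% of all genes called lower. CD68, a lysosomal protein of macrophages, was at 26.8 to 27.7 FPKM in oeNC and 19.1 to 19.4 FPKM in oeSTUB1, above SERPINB9 in every library. The part of these markers in the values of SERPINB1 and SERPINB9 was not tested.

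SERPINB7, also called megsin, was at 1.00, 0.855 and 1.06 FPKM in oeNC and at 2.39, 2.26 and 2.92 FPKM in oeSTUB1. The groups were well apart, and the gene rose by 1.29 on the log2 scale (SE 0.15, adjusted p = 0.00143, limma), in all 16 alternatives as well. SERPINB8, an inhibitor of furin-like proteases, was at 1.37, 1.39 and 1.47 FPKM in oeNC and at 2.26, 1.84 and 2.03 FPKM in oeSTUB1. It rose by 0.50 on the log2 scale (SE 0.12, adjusted p = 0.0358, limma). The call of SERPINB8 held without oeSTUB1 replicate 2 and was lost without any other single library (adjusted p 0.0841 to 0.139) and with a replicate block (adjusted p = 0.0831). SERPINB8 also overlaps AC009802.1 on the opposite strand.

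SERPINB3 and SERPINB4, the squamous cell carcinoma antigens, inhibit lysosomal cathepsins and chymotrypsin-like proteases respectively. Their transcripts were 95.7% identical over 1749 aligned bases, so that reads may have been split or dropped between them and both values are uncertain. SERPINB3 rested on 6, 15 and 12 fragments in oeNC and 27, 23 and 42 in oeSTUB1, which made 0.101, 0.254 and 0.191 FPKM against 0.459, 0.407 and 0.720 FPKM. It rose by 1.16 on the log2 scale (SE 0.29, adjusted p = 0.0345, limma). Without oeSTUB1 replicate 2 it was still called, and without any other single library it was not (adjusted p 0.0528 to 0.112). SERPINB4 rested on 3, 2 and 2 fragments in oeNC and 8, 8 and 14 in oeSTUB1, without overlap, and was not called at a log2 fold change of 0.93 (adjusted p = 0.0524, limma). It was called with no filter (adjusted p = 0.0267). Quantile normalization (0.0434), eBayes without a trend (0.0152) and limma-voom on recovered fragments (0.0467) called it too. Those fits kept the level filter, which SERPINB4 passed only through oeSTUB1, so that its direction was set beforehand. SERPINB4 was not called in any fit that left out 1 library (adjusted p 0.0552 to 0.155), with a replicate block (0.105) or in the other alternatives.

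SERPINB11, a clade B gene with little known function, went the other way. It was at 1.01, 1.23 and 1.45 FPKM in oeNC and at 0.0605, 0.0945 and 0.275 FPKM in oeSTUB1, from 67, 82 and 102 fragments against 4, 6 and 18. The highest oeSTUB1 library was far below the lowest control, and the means differed 8.58-fold. SERPINB11 fell by 2.54 on the log2 scale (SE 0.32, adjusted p = 0.00235, limma), in all 15 alternatives that tested it. Its annotated span contains SERPINB3 on the opposite strand.

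The remaining clade B genes were under the filter. SERPINB5, maspin, had 2, 3 and 4 fragments in oeNC and 6, 8 and 8 in oeSTUB1, so that the groups were apart at a very low level. SERPINB12 had at most 5 fragments in a library, and SERPINB2, plasminogen activator inhibitor 2, at most 1. Squamous epithelium, which is rich in SERPINB3, SERPINB4, SERPINB5 and SERPINB7, left few marks here. Of 9 markers 6 were in the table and 2 were tested, KRT10 and TP63. Neither was called by limma, beside 13.6% of all genes tested, or by limma-voom, and 0 had an unadjusted p under 0.05 with limma. The list summed to 14.1 to 16.3 FPKM in oeNC and 16.2 to 22.7 FPKM in oeSTUB1, nearly all of it KRT10, and its part in the clade B changes was not tested.

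In clades E, H and I, 3 of the 4 listed genes were tested. The 3 had a median log2 fold change of 1.07, and 2 rose, beside 7.01% of all genes called higher. SERPINE2, protease nexin 1, inhibits thrombin and plasminogen activators at the cell surface. It was at 6.96, 6.97 and 6.72 FPKM in oeNC and at 14.9, 15.9 and 13.2 FPKM in oeSTUB1. The controls lay close together, and the gene rose by 1.07 on the log2 scale (SE 0.09, adjusted p = 0.000416, limma). SERPINI1, neuroserpin, an inhibitor of tissue plasminogen activator best known from neurons, was at 1.85, 1.83 and 2.23 FPKM in oeNC and at 4.17, 5.55 and 5.76 FPKM in oeSTUB1. It rose by 1.34 on the log2 scale (SE 0.15, adjusted p = 0.00138, limma). Both calls held in all 16 alternatives, and for both genes the groups were well apart.

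SERPINH1, the collagen chaperone HSP47 of the endoplasmic reticulum, was at 31.8, 32.3 and 32.4 FPKM in oeNC and at 36.96, 42.7 and 36.8 FPKM in oeSTUB1. The groups did not overlap, and the log2 fold change of 0.27 (95% interval 0.08 to 0.46) had an adjusted p of 0.0725 with limma. Without oeSTUB1 replicate 2 it was 0.20 with an adjusted p of 0.0127. SERPINE3 had at most 4 fragments in a library and was not tested. Mesenchymal cells are a common source of SERPINH1. Of their 10 markers 4 were tested and limma called none, beside 13.6% of all genes tested. Of these 4, 2 had an unadjusted p under 0.05 with limma, COL1A1 at a log2 fold change of 0.75 and LUM at -1.03. LUM passed the filter only through oeNC, so that its direction was set by the filter. Of the 4, limma-voom called 0. DCN was at 0 in 4 libraries, and the list summed to 465 to 533 FPKM in oeNC and 456 to 629 FPKM in oeSTUB1, nearly all of it VIM.

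Bile duct markers changed in the same libraries. Of the 9 tested, KRT19 and MUC1 rose and KRT8, KRT18, EPCAM, ANXA4 and CDH1 fell, beside 7.01% of all genes called higher and 6.59% lower. The list summed to 7552 to 8129 FPKM in oeNC and 4807 to 6360.5 FPKM in oeSTUB1. The part of these epithelial markers in the serpin changes was not tested.

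Many serpins are neighbours, and 19 of the 27 lie in 4 clusters of the GRCh38 annotation. On chromosome 14, 6 clade A genes lie within 343.601 kb (chr14:94280455-94624055), and SERPINA3, at its right end, was the 1 gene called. On chromosome 18, 8 clade B genes lie within 543.019 kb (chr18:63476761-64019779). There SERPINB3, SERPINB7 and SERPINB8 rose and SERPINB11 fell, so that genes of 1 cluster went in opposite directions. SERPINB1, SERPINB9 and SERPINB6 lie within 139.834 kb on chromosome 6 and were not called. SERPINF2 and SERPINF1 lie within 34.739 kb on chromosome 17, and both fell. SERPINA4 and SERPINA5 overlap on the same strand.

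**Figure D4:**
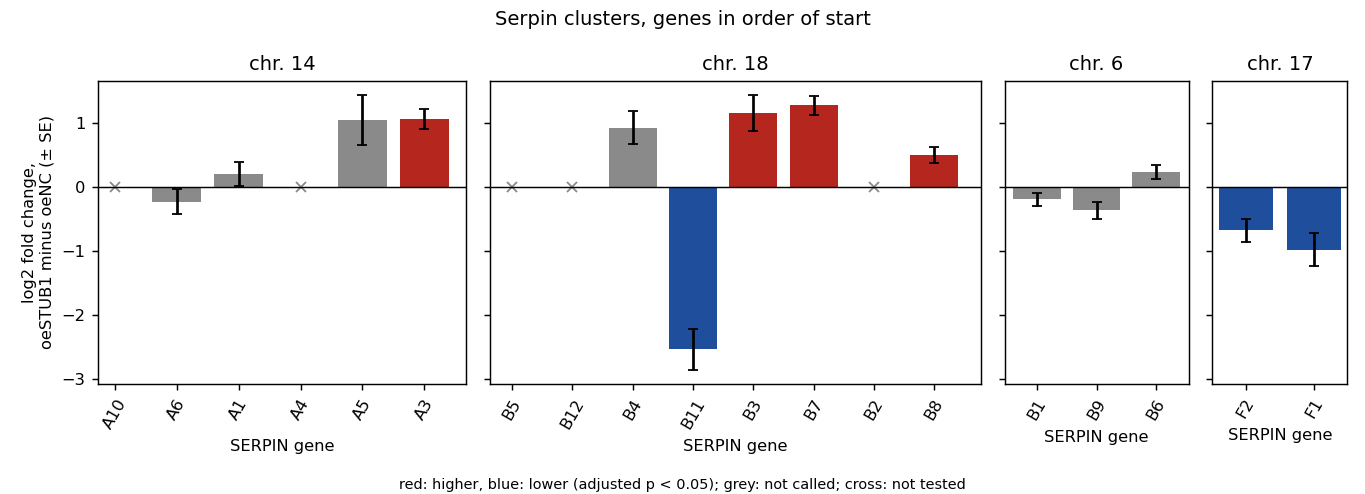
Log2 fold change, oeSTUB1 minus oeNC, with its SE, for the serpins of 4 clusters, in the order of their start on the chromosome. Crosses mark genes that were not tested, red bars genes called higher, blue bars genes called lower and grey bars genes not called, and SERPINB11 points down between SERPINB4 and SERPINB3.

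The proteases that serpins trap changed in both directions. Of 38 serine proteases sought, 33 were in the table and 14 were tested, and 4 rose and 2 fell, where 7.01% of all genes tested were called higher and 6.59% lower. The oeSTUB1 mean of F10 was under the filter, so that its fall was set by the filter. Of the 13 without F10, 4 rose (30.8%) and 1 fell (7.69%), and their median log2 fold change was -0.04. The plasminogen activators, which SERPINE2 can inhibit, differed from each other. PLAU, urokinase, was at 22.3, 22.7 and 23.5 FPKM in oeNC and at 21.7, 25.4 and 20.6 FPKM in oeSTUB1, with overlapping groups and an adjusted p of 0.905. PLAT, tissue plasminogen activator, was at 0.367, 0.151 and 0.187 FPKM in oeNC and at 0.919, 0.671 and 0.545 FPKM in oeSTUB1, and it rose by 1.31 in log2 (adjusted p = 0.0232, limma). The call of PLAT was lost without oeNC replicate 2, oeNC replicate 3 or oeSTUB1 replicate 1 (adjusted p 0.0874, 0.0873 and 0.0734).

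C1R and C1S, the complement proteases that SERPING1 holds in check, rose while SERPING1 itself stayed under the filter. C1R was at 3.61, 3.68 and 3.48 FPKM in oeNC and at 13.04, 13.09 and 16.01 FPKM in oeSTUB1 (log2 fold change 1.93, adjusted p = 7.9e-05, limma). C1S was at 12.3, 12.2 and 11.7 FPKM in oeNC and at 22.1, 24.5 and 25.9 FPKM in oeSTUB1 (log2 fold change 0.99, adjusted p = 0.000402, limma). PRSS3, mesotrypsin, rose by 1.86 on the log2 scale. The coagulation protease F7 fell by 1.75, from 1.40 to 1.52 FPKM in oeNC to 0.306 to 0.441 FPKM in oeSTUB1, and F10 fell from 39, 32 and 45 fragments in oeNC to 5, 3 and 6 in oeSTUB1, having passed the filter only through oeNC. The calls of C1R, C1S, PRSS3 and F7 held in all alternatives run for them.

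Of the 10 cysteine proteases that clade B members can meet inside cells, all were tested, 4 rose and none fell, beside the 7.01% of all genes called higher and 6.59% lower. The count includes CASP1, which passed the filter only through oeSTUB1, and of the other 9, 3 rose, and the 9 had a median of 0.35 in log2 fold change. CASP4, an inflammatory caspase, was at 1.23, 1.13 and 1.86 FPKM in oeNC and at 4.17, 3.97 and 5.42 FPKM in oeSTUB1 (log2 fold change 1.63, adjusted p = 0.00206, limma). CTSS, cathepsin S, rose by 1.19 on the log2 scale, and CTSC, which activates granule serine proteases, by 0.45. CASP1 rested on 5, 4 and 3 fragments in oeNC and 18, 18 and 21 in oeSTUB1, and its call was lost without any single library but oeSTUB1 replicate 2 (adjusted p 0.0547 to 0.0726). The call of CTSC was lost without oeNC replicate 1 or oeNC replicate 2 (adjusted p 0.0804 and 0.0788). CTSL and CTSB, the most abundant of the 10, were not called.

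Of 15 receptors and cofactors tested, 2 rose and none fell, a share near the 13.6% of all genes called. VLDLR, which takes up serpins in complex with their proteases, rose by 0.52 in log2 (adjusted p = 0.0171, limma), a call lost without any 1 of the oeNC libraries or oeSTUB1 replicate 1 (adjusted p 0.0571 to 0.0855). THBD, thrombomodulin, was the other. PLAUR, the urokinase receptor, was at 8.73, 8.83 and 9.64 FPKM in oeNC and at 8.84, 11.04 and 10.7 FPKM in oeSTUB1, with overlap and an adjusted p of 0.355. The main clearance receptor LRP1 was not called.

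Of protease inhibitors of other families, 2 of 13 tested were higher (PI3 and CSTB) and 3 lower (TFPI, ITIH2 and ITIH5), beside 7.01% and 6.59% of all genes. ITIH5 fell by 1.42 in log2 (adjusted p = 0.00279, limma), a call kept in all alternatives. PI3, elafin, TFPI, the tissue factor pathway inhibitor, and ITIH2 lay nearer the threshold (adjusted p 0.0453, 0.0352 and 0.0437) and were each lost without oeNC replicate 1, 2 or 3 or oeSTUB1 replicate 1, with adjusted p up to 0.152. CSTB, cystatin B, lay nearest (adjusted p = 0.0491, log2 fold change 0.39) and was lost without any single library but oeSTUB1 replicate 2 (adjusted p 0.0519 to 0.167).

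Among 18 collagen folding partners of SERPINH1, all tested, 4 rose and none fell, beside 7.01% of all genes called higher and 6.59% lower, with a median log2 fold change of 0.14. PLOD2, a lysyl hydroxylase, was at 41.1, 41.6 and 39.4 FPKM in oeNC and at 82.3, 73.9 and 73.9 FPKM in oeSTUB1 (log2 fold change 0.91, adjusted p = 0.000402, limma). The prolyl hydroxylases P4HA3 and P3H3 rose by 1.41 and 1.87 on the log2 scale, and PLOD1 by 0.30. The call of PLOD1 held without oeSTUB1 replicate 2 and was lost without any other single library (adjusted p 0.0671 to 0.141). Of 17 genes tested that fold, export or degrade secreted serpins in the endoplasmic reticulum, limma called none, beside 13.6% of all genes tested. Of these 17, 2 had an unadjusted p under 0.05 with limma, and limma-voom called 0.

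**Figure D5:**
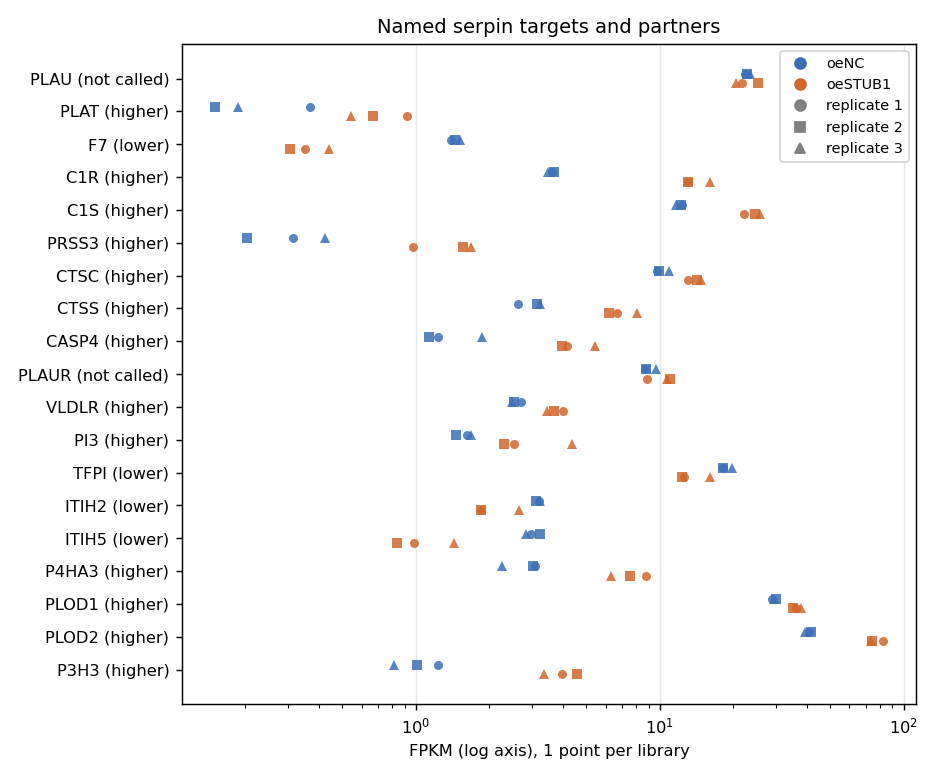
FPKM, on a log axis and with 1 point per library, of the named proteases, receptors, other inhibitors and collagen folding genes, oeNC in blue and oeSTUB1 in orange, with the call beside each symbol. PLAU and PLAUR have overlapping groups, and C1R, P3H3 and CASP4 have oeSTUB1 points well to the right.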

How the data were processed

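The 6 libraries were matched to groups by their labels. The authors deposited FPKM values for 23569 genes. The submitters' processing notes name fastp 0.20.1, HISAT2 2.1.0, HTSeq 0.11.2, DESeq2 1.22.2, R 3.2.0 and GRCh38.p13, without their roles, and strandedness is not given in the sources used here. Members and gene lists were chosen with earlier results of these data known. A serpin gene and a bile duct marker are not reported here and enter no count, median or sum of members.

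Whole fragments were recovered from the FPKM steps for 23569 genes (100.0%), to within 4.9e-06 FPKM. They cover 99.7% of each library total, and a gene whose true numbers share a divisor may be given too few. The 15353 genes averaging 0.1 FPKM or more were compared on log2(FPKM + 0.1) with limma 3.58.1 in R 4.3.3 (two-sided, intensity trend, Benjamini-Hochberg adjustment over all of them). The added 0.1 shrinks the fold changes of low genes. On simulated data, 195 of 200 genes changed 4-fold were called with the right sign among 15359 tested, beside 15 unchanged genes called. The simulation gave all genes and libraries the same spread and held no library apart, unlike oeSTUB1 replicate 2 here. It therefore does not measure how often calls are right in these data or for changes under 4-fold.

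Every tested serpin with a mean of 1 FPKM or a call has its libraries printed. Of each list, up to 4 called genes with the largest changes and at least 1 FPKM in the higher group were named, with PLAU, PLAT and PLAUR. F10, CASP1, THBD, CSTB, LRP1, CTSL, CTSB and the markers were named after their values were seen. Coordinates come from GENCODE 29 on GRCh38. The closing section gives the alternatives.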

Additional observations from a re-analysis of the deposited data

How the results depend on the processing

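Each serpin was refitted under up to 16 alternatives, and of 267 recomputed values all kept their direction, 225 also their side of the threshold, 32 lost a call and 10 gained one. SERPINA3, SERPINB7, SERPINE2, SERPINI1 and SERPINB11 were called in every alternative that tested them. Serpins called lower numbered 3, and 1 with no filter, with a filter of 1 FPKM, after quantile normalization, with limma-voom on the recovered fragments, or when a log2 fold change over 1 was also required. Secreted genes called lower numbered 2, and 1 with a pseudocount of 1, a filter of 1 FPKM, eBayes without a trend, or the replicate block, and 0 with no filter, quantile normalization, limma-voom, or the log2 limit of 1. Clade B genes called lower numbered 1, 0 with the filter of 1 FPKM, where SERPINB11 was not tested, and 2 when gene length was corrected for, an alternative chosen after seeing the data.

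Leaving out 1 library at a time gave 4 to 8 serpins higher (6 with all) and 1 to 5 lower. Secreted genes numbered 1 to 2 higher and 0 to 2 lower. Clade B genes numbered 1 to 3 higher and 1 to 3 lower. Without oeSTUB1 replicate 2, SERPINA5 counted among the higher, though its direction was set by the level filter. The log2 fold change of PLAU (-0.02 with all libraries, not called) ranged from -0.11 to 0.041, and was above 0 without oeNC replicate 3, oeSTUB1 replicate 1 or oeSTUB1 replicate 3. Over all genes, 2088 calls became 4112 when oeSTUB1 replicate 2 was left out and 933 when oeNC replicate 2 was, and 3322 under the length correction. Causes were not tested beyond the construction of each alternative.

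Replicate numbers were shared by the groups. Libraries with the same number deviated from their group means with correlations of -0.05, -0.05 and 0.06 over 15353 genes. These values show no pairing by number, and with 3 libraries in each group they cannot exclude it. The replicate block made 1488 calls over all genes (741 higher, 747 lower) and lost the calls of SERPINB8 (adjusted p = 0.0831) and SERPINF2 (adjusted p = 0.067).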
